A study of Homo sapiens with 39 samples.

Results

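The genes of the YAP/TEAD pathway and its targets were followed in HCT116 cells, a human colorectal cancer line, that produced 1 of 12 isoforms of the nuclear receptor HNF4A. The 10 genes were chosen by name: CYR61, CTGF, ANKRD1, AMOTL2, AJUBA, LATS2, TEAD1, TEAD4, YAP1 and WWTR1. They are 10 of the 45435 gene rows of the tables, and 9 of them were tested, among 15003 rows with a mean of at least 1 TPM (a level scaled by transcript length and to a fixed total per library). ANKRD1 was under that mean and is given by its levels alone.

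RNA was sequenced from 39 libraries in 13 groups of 3. The parental group was the HCT116 Flp-In T-REx host, with no HNF4A construct. The other groups were stable lines with 1 inserted construct each, for HNF4A isoform 1, 2, 3, 4, 5, 6, 7, 8, 9, 10, 11 or 12 with GFP at its C-terminus. All 13 groups, the parental cells too, received 2.5 µg/ml doxycycline for 48 h without selection antibiotics. Before induction, blasticidin with zeocin had been used to maintain the parental cells, and blasticidin with hygromycin the lines. Each isoform is represented by 1 line, and no group made GFP alone, so the isoform, GFP, the derivation of a line and the earlier antibiotics cannot be told apart. The labels do not say that the 3 libraries of a group came from separate cultures, so p-values measure the spread between libraries, which may be technical.

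The Hippo pathway is a kinase cascade in which STK3 and STK4 activate the kinases LATS1 and LATS2. LATS1 and LATS2 phosphorylate the co-activators YAP1 and TAZ (the protein of WWTR1) and hold them in the cytoplasm. Unphosphorylated YAP1 and TAZ enter the nucleus and bind the TEAD factors, which attach to DNA and switch on genes such as CTGF, CYR61 and ANKRD1. AMOTL2 and LATS2 are targets that also restrain YAP1, so they form feedback loops, and AJUBA is a LIM protein that binds LATS kinases and holds them away from YAP1. In the intestine the pathway is known for its part in crypt regeneration and in colorectal tumours. The activity of YAP1 and TAZ is set largely by the location of the proteins, which mRNA levels do not measure.

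The promoters of target genes are shown because TEAD factors act through short sites in them. RefSeq start sites (GRCh38.p14) gave 10 windows for 7 of the 10 genes. CYR61, TEAD1 and TEAD4 were not matched. Each window has 250 bases before the start site and 50 after it. The windows were searched on both strands for GGAATG, the core bound by TEAD factors, and for CAAAGTCC and AGGTCAAAG, which are bound by HNF4A. Of 35116 windows of the same length, 14% held GGAATG, 1.37% held it at least 2 times and 0.128% at least 3 times. CAAAGTCC was in 1.2% and AGGTCAAAG in 0.276% of them. The last 2 motifs share the letters CAAAG, and no window of these genes held both. The windows printed were chosen after the expression values were known. They are the 250 bases before the start site on the gene's strand, 5′ to 3′, with motif matches in capitals. CTGF lies at chr6:131951373-131951622 (minus strand), ANKRD1 at chr10:90921088-90921337 (minus strand), AMOTL2 (the second of 2 windows) at chr3:134374448-134374697 (minus strand) and AJUBA (the second of 2 windows) at chr14:22976843-22977092 (minus strand).
CTGF: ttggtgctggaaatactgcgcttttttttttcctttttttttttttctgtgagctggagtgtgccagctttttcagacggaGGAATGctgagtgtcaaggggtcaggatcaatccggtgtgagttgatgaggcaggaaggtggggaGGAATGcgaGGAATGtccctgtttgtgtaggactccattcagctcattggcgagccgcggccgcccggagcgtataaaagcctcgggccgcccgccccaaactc
ANKRD1: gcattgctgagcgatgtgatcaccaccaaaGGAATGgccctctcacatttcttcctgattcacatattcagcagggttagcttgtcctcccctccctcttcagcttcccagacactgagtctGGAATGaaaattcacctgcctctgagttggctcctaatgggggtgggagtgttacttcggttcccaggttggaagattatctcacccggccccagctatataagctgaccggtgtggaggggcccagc
AMOTL2: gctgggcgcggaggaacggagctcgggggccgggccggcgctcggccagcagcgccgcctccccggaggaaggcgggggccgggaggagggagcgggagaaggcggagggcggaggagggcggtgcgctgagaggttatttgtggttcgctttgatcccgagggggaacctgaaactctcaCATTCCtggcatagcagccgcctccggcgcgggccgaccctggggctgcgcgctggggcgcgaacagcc
AJUBA: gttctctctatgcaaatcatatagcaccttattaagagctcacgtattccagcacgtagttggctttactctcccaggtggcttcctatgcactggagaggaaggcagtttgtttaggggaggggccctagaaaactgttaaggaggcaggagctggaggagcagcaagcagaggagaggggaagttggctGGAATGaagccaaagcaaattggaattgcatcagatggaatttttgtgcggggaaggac
AJUBA site: aggaaaagcaCAAAGTCCaggtttaaat

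CTGF held 3 GGAATG matches, which began 169, 104 and 95 bases before the start site. ANKRD1 held 2, at 220 and 128 bases before it. AMOTL2 held 1, read on the opposite strand (CATTCC as printed), 69 bases before the start, and AJUBA held 1, at 59 bases before it. YAP1 had a match 162 bases before its start and LATS2 had a match that began at base 10 of the transcript. The only HNF4A-type match in the 10 windows was CAAAGTCC in AJUBA, which began at base 25 of the transcript and is printed with its flanks as the AJUBA site (chr14:22976801-22976828, minus strand). The first windows of AMOTL2 and AJUBA and both windows of WWTR1 held none of these letters. A match is a description of the sequence and does not show binding.

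HNF4A, the induced gene, averaged 31.5 TPM ± 0.589 (SD, n = 3) without a construct, and single libraries of the lines had between 407 and 1109 TPM. The library labelled isoform 3 replicate 1 stood at 407 TPM, below the 833 and 772 TPM of replicates 2 and 3, so values for isoform 3 are also given without it. Between 27884 and 30550 genes were above 0 TPM in a library. The epithelial markers EPCAM, CDH1, KRT8, KRT18 and KRT19 were at 20.6 TPM or more in all 39 libraries, whereas CEACAM5 was at most at 0.134 TPM. Of 6 markers of other cells, PTPRC, DCN, CDH5 and ALB stayed under 0.66 TPM, DCN at 0 in all parental libraries, and COL1A1 and PECAM1 were present in every library. The 6 summed to between 14.5 and 17.2 TPM in the parental libraries, 18 and 20.4 TPM in isoform 1, and 10 and 18 TPM in the other lines. PECAM1 was called higher in isoform 1, by 1.02 ± 0.12 (SE) on the log2 scale, and passed as higher in isoforms 2 (0.63), 7 (0.50), 8 (0.48) and 11 (0.66) and as lower in isoforms 5 (-0.42) and 6 (-0.44). The lines with a call of CTGF or AJUBA, isoforms 1, 2, 7 and 11, were thus among those with higher PECAM1. COL1A1 was called in no line and passed as lower in isoforms 7 (-0.34), 8 (-0.40) and 9 (-0.50). Their part in the results below was not tested.

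Each line was compared with the same 3 parental libraries by limma on log2(TPM + 1), with Benjamini-Hochberg adjustment over all genes of a comparison. A gene was called at an adjusted p under 0.05 and a log2 fold change of at least 1 in size, and is said to have passed at an adjusted p under 0.05 alone. Libraries of a line are also said to lie above, below or apart from all parental libraries. The share of all genes for which this holds was not counted. It also held where a gene did not pass, as for AJUBA in isoforms 4, 5 and 9. The 9 tested genes gave 108 gene-line pairs. Called higher were 4 pairs, CTGF in isoforms 7 and 11 and AJUBA in isoforms 1 and 2, where 0.94% of all gene-line pairs were called higher. Called lower was 1 pair, CYR61 in isoform 4, where 0.574% of all pairs were. At an adjusted p alone, 22 pairs were higher against 12.8% of all pairs, and 36 were lower against 17.9% of all pairs. With libraries rescaled by median-of-ratios factors the split was 31 higher and 34 lower, beside 20.1% higher and 12.9% lower of all pairs. That scaling moved the median fold change of all genes from -0.107 to 0.015 in isoform 1 and from -0.090 to 0.018 in isoform 2. The median over the 9 genes ran from -0.41 in isoform 2 to 0.22 in isoform 8, beside -0.11 to 0.01 over all genes.

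The share of all genes that passed differed widely between lines, and the counts of the 9 genes are to be read beside it. In isoform 4 the genes that passed were all lower, namely CYR61, CTGF, AMOTL2, TEAD1 and WWTR1 (0 higher and 5 lower, beside 6.26% and 10.1% of all genes). Isoform 5 had 1 higher and 2 lower (9.57% and 5.22% of all genes), and isoform 6 had 1 higher, CYR61, and 0 lower (5.94% and 4.13%). In isoform 8, 5 were higher, CYR61, CTGF, AJUBA, LATS2 and TEAD4, and 2 were lower, AMOTL2 and WWTR1 (16.9% and 17.5% of all genes). In isoform 1, 4 were higher and 3 lower in a line where 19.8% of all genes were higher and 38.7% lower. Isoform 2 had 2 higher and 5 lower (19.7% and 35.6%), isoform 3 had 1 and 3 (11.2% and 14.7%), and isoform 7 had 2 and 3 (13.4% and 26.2%). Isoform 9 had 1 higher and 4 lower (10.9% and 11.8%), isoform 10 had 2 and 3 (17% and 20.4%), isoform 11 had 2 and 3 (14.5% and 24%), and isoform 12 had 1 and 3 (7.92% and 6.65%).

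**Figure D1:**
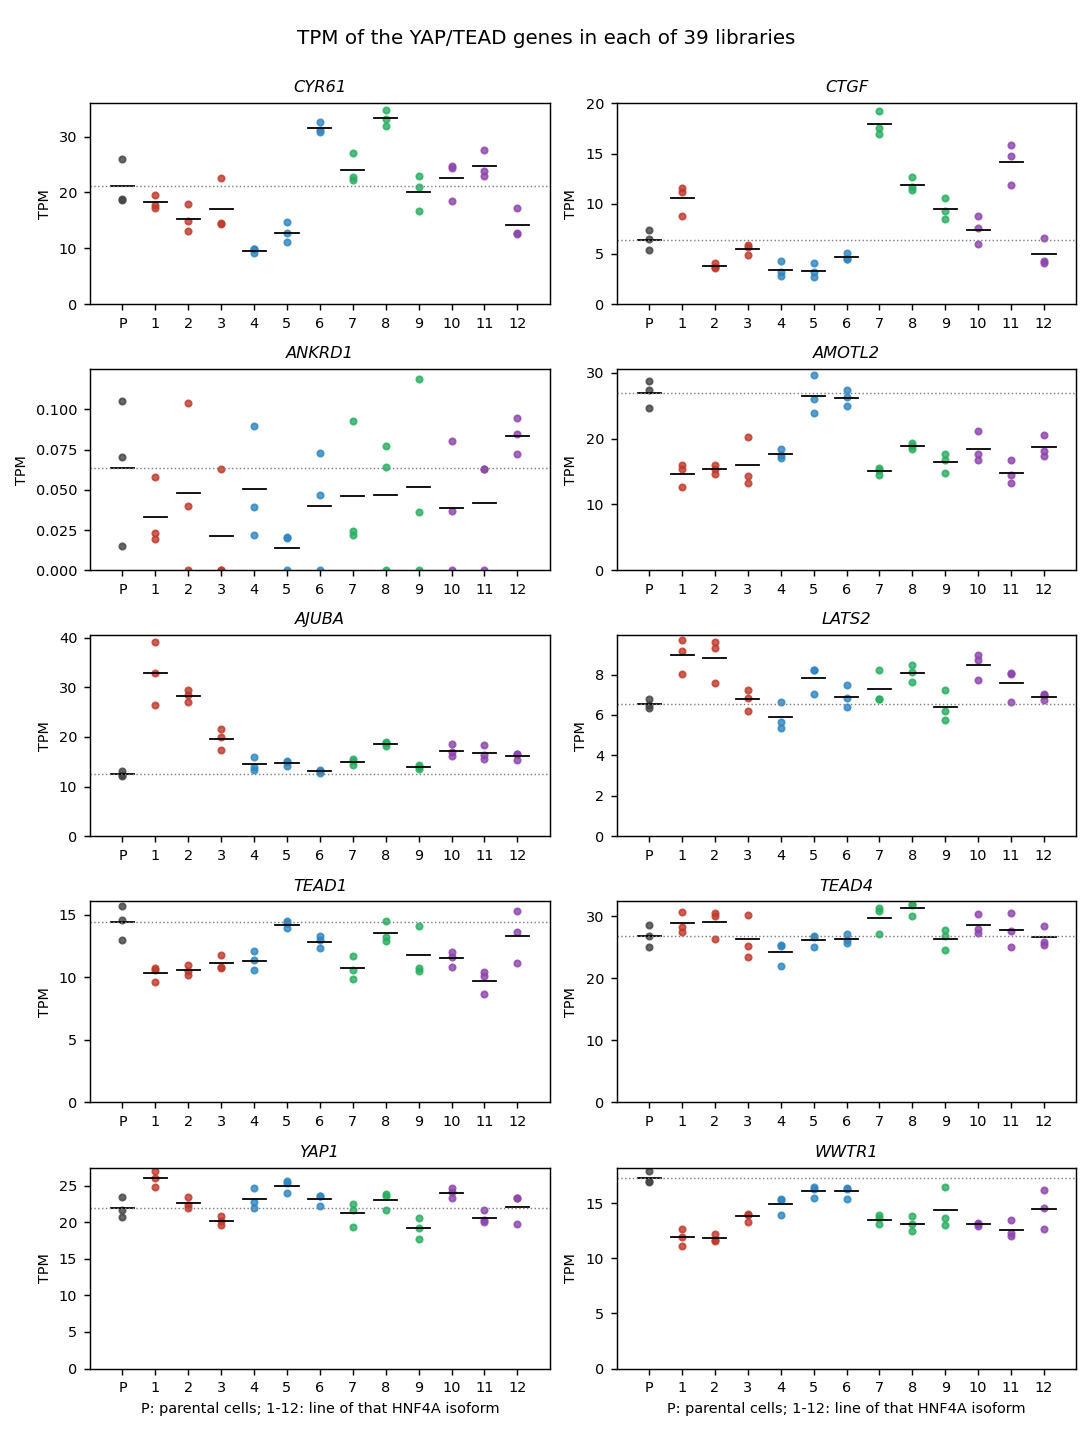
TPM (vertical axes, linear, from 0) of the 10 genes in each of 39 libraries, with the parental cells (P) and the lines 1 to 12 along the horizontal axes. Points are libraries, bars are group means, the dotted line is the parental mean, and colours mark isoforms 1-3, 4-6, 7-9 and 10-12. CTGF reached 16.9 to 19.2 TPM in isoform 7, AJUBA reached 26.5 to 39.1 TPM in isoform 1, and ANKRD1 stayed at or under 0.119 TPM in all 39 libraries.

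CTGF (connective tissue growth factor, now CCN2) encodes a secreted matrix-associated protein and is the most used readout of YAP1 and TAZ. It lies on chromosome 6 from 131948176 to 131951373 (GRCh38, minus strand). CTGF rose in 5 lines and fell in 3. The parental libraries had 7.42, 5.37 and 6.45 TPM. Isoform 7 had 19.2, 17.5 and 16.9 TPM and isoform 11 had 14.8, 11.9 and 15.9 TPM, all above every parental library. In isoform 7, where 1.12% of all genes were called higher, the mean was 2.79 times the parental mean and the log2 fold change was 1.36 ± 0.15 (SE, adjusted p = 9.03e-09, limma). The mean in isoform 11 was 2.21 times the parental mean, at 1.03 ± 0.15 (adjusted p = 1.42e-06, limma), and 1.05% of all genes were called higher there. This value lay close to the minimum for a call and was 0.93 without parental replicate 2 and 0.95 without isoform 11 replicate 3, which ended the call but left the adjusted p at 4.27e-05 and 3.93e-05 (limma).

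Isoform 8 had 11.7, 11.4 and 12.7 TPM of CTGF, isoform 1 had 11.6, 8.81 and 11.2 TPM, and isoform 9 had 10.6, 8.48 and 9.26 TPM. None of these libraries overlapped the parental range, and the log2 fold changes were 0.81, 0.64 and 0.50 with adjusted p-values of 6.54e-05, 0.000413 and 0.0128 (limma). On the other side, isoform 5 had 4.08, 3.19 and 2.74 TPM, isoform 4 had 4.26, 3.19 and 2.79 TPM, and isoform 2 had 4.07, 3.64 and 3.67 TPM. All 9 of these libraries were below every parental library, with log2 fold changes of -0.78, -0.75 and -0.62. The value in isoform 9 no longer passed without parental replicate 2 (0.39, adjusted p = 0.0898, limma) or without isoform 9 replicate 1 (0.42, adjusted p = 0.0601, limma). In isoforms 3, 6, 10 and 12 the fold changes were between -0.38 and 0.18 and did not pass.

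CYR61 (now CCN1), a secreted relative of CTGF that signals through integrins, lies on chromosome 1 from 85580761 to 85583962 (plus strand). It rose in 2 lines and fell in 4. The parental libraries had 26, 18.6 and 18.8 TPM, with replicate 1 above the others. Isoform 4 had 9.1, 9.87 and 9.84 TPM, the lowest of the 13 groups and below every parental library. The log2 fold change was -1.05 ± 0.15 (SE, adjusted p = 8.21e-06, limma), in a line where 0.313% of all genes were called lower. It was -0.89 without parental replicate 1 and -0.98 with median-of-ratios scaling, which passed (adjusted p = 0.000233 and 3.91e-05, limma) without reaching the minimum for a call.

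Isoform 5 had 14.7, 12.7 and 11.1 TPM of CYR61, with a log2 fold change of -0.67 (adjusted p = 0.00239, limma). Isoform 12 had 17.2, 12.6 and 12.7 TPM (-0.54, adjusted p = 0.0139, limma) and isoform 2 had 18, 13.1 and 14.9 TPM (-0.43, adjusted p = 0.0158, limma). Without parental replicate 1 neither of the last pair passed (adjusted p = 0.125 and 0.142, limma), and CYR61 was lower in 2 lines. Isoform 2 also did not pass without its replicate 2 (0.0978) or with median-of-ratios scaling (0.0915), and isoform 12 without its replicate 2 or 3 (0.0731 and 0.0751). CYR61 was highest in isoform 8, at 34.7, 31.9 and 33.2 TPM, and in isoform 6, at 31.2, 32.6 and 30.8 TPM. Both lines lay above all parental libraries, with log2 fold changes of 0.65 (adjusted p = 0.00123, limma) and 0.57 (adjusted p = 0.0132, limma). The rise in isoform 6 did not pass without parental replicate 2 (adjusted p = 0.08, limma), parental replicate 3 (0.0787) or isoform 6 replicate 2 (0.055). In the other 6 lines the fold changes were between -0.30 and 0.23 and did not pass. In isoform 3 it was -0.51 (adjusted p = 0.0108, limma) once the library with 407 TPM of HNF4A was left out.

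Both genes passed in the same direction in isoforms 4, 5 and 2, where they were lower, and in isoform 8, where they were higher. In isoform 6 CYR61 rose, while CTGF had 5.05, 4.54 and 4.46 TPM, below every parental library, with a log2 fold change of -0.38 that did not pass (adjusted p = 0.108, limma). In isoforms 1, 7, 9 and 11 CTGF rose, while CYR61 had fold changes of -0.19, 0.19, -0.06 and 0.23 that did not pass. In isoform 12 CYR61 fell (-0.54), while CTGF had a fold change of -0.32 that did not pass. The difference in response between the 2 genes was not tested. CYR61, CTGF and YAP1 each passed as higher in some lines and lower in others, a property of 13.7% of the genes tested. Over the 12 line means of log2(TPM + 1) CYR61 and CTGF had a Pearson r of 0.65 and a Spearman rho of 0.71, and r was 0.52 without the 2 lines farthest from the median of CYR61 (isoforms 8 and 4). These values are a description, since both genes of a line were read from the same libraries.

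**Figure D2:**
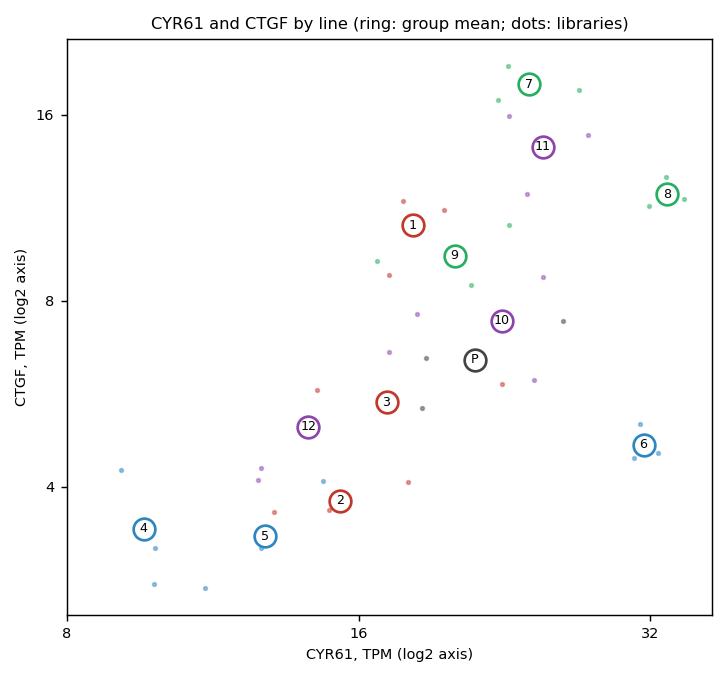
CYR61 (horizontal) against CTGF (vertical), both in TPM on log2 axes, with a ring for each group mean (P parental, 1 to 12 lines) and dots for libraries. Isoforms 4 and 5 lie at the low end of both genes, isoform 7 is highest for CTGF, and isoform 6 combines 30.8 to 32.6 TPM of CYR61 with 4.46 to 5.05 TPM of CTGF.

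ANKRD1, a nuclear ankyrin-repeat protein of muscle and a strong YAP1 target in many cells, lies on chromosome 10 from 90912096 to 90921276 (minus strand). It was listed at 0 in 9 of the 39 libraries and was at most at 0.119 TPM. The parental libraries had 0.105, 0.0153 and 0.0702 TPM, and those of isoform 7, the line with the most CTGF, had 0.0243, 0.022 and 0.0925 TPM. These ranges overlap, and no fold change is given at this level. Its promoter, printed above, holds 2 GGAATG matches.

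AMOTL2 encodes a junctional scaffold of the angiomotin family that binds YAP1 and restrains it. It lies on chromosome 3 from 134355874 to 134375479 (minus strand). AMOTL2 fell in 10 of 12 lines and rose in none, and 1.53% of the genes tested were lower in at least 10 lines. Parental cells had 28.8, 24.6 and 27.4 TPM. Isoform 1 had 16, 12.6 and 15.4 TPM, isoform 11 had 16.7, 13.2 and 14.5 TPM and isoform 7 had 15.2, 14.5 and 15.6 TPM. All 9 libraries were below every parental library, with log2 fold changes of -0.84, -0.82 and -0.79 ± 0.11 (SE). In isoforms 5 and 6 AMOTL2 had 29.7, 26.1, 23.9 and 26.3, 24.9, 27.4 TPM, which overlapped the parental libraries, with fold changes of -0.02 and -0.04. The other 7 lines fell by 0.49 to 0.77 on the log2 scale. No pair reached the minimum for a call. The count of 10 lines was the same without any 1 of the parental libraries and with median-of-ratios scaling. Isoform 3 had 20.3, 13.3 and 14.4 TPM, and its fold change of -0.74 became -0.91 without replicate 1. In these bulk libraries, less AMOTL2 per cell and fewer cells with AMOTL2 cannot be told apart.

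CTGF and AMOTL2 are both YAP1 targets. AMOTL2 fell in isoforms 7, 11, 8, 1 and 9, the 5 lines in which CTGF rose. It also fell in isoforms 2 (-0.77) and 4 (-0.58), where CTGF fell too (-0.62 and -0.75), and in isoforms 3, 10 and 12, where CTGF did not pass. In isoform 5 CTGF fell and AMOTL2 did not pass. Over the 12 line means r between them was -0.53 (rho -0.55, and -0.39 without isoforms 7 and 11). Within groups the sign was the other way. The deviations of the 39 libraries from their group means had r of 0.66 for CTGF and AMOTL2, 0.65 for CYR61 and AMOTL2 and 0.44 for CYR61 and CTGF. The library numbered 1 was the highest of its group in 9 of 11 numbered groups for CTGF and in 8 of 11 for CYR61 and for AMOTL2. The deviations of different genes in a library share its depth and handling, and these values are a description.

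AJUBA lies on chromosome 14 from 22971174 to 22982642 (minus strand). It rose in 8 lines and fell in none, and 6.19% of the genes tested were higher in at least 8 lines. Its parental levels were 12.1, 13.1 and 12.3 TPM. Isoform 1 had 32.8, 26.5 and 39.1 TPM, which is 1.31 ± 0.09 (SE) higher on the log2 scale (adjusted p = 9.82e-14, limma). Isoform 2 had 28.4, 27.1 and 29.5 TPM, higher by 1.12 ± 0.09 (adjusted p = 4.1e-12, limma). Of all genes, 2.74% were called higher in isoform 1 and 2.36% in isoform 2. Every library of both lines was at least at 26.5 TPM, above all libraries of the other 11 groups, of which the highest was isoform 3 with 21.6 TPM. Isoform 3 had 17.3, 20 and 21.6 TPM and a fold change of 0.61 (0.69 without replicate 1). Isoform 8 followed at 19, 18.7 and 18.1 TPM (0.54), and isoforms 10, 11, 12 and 7 rose by 0.25 to 0.43 on the log2 scale. In isoforms 4, 5, 6 and 9 the fold changes were between 0.06 and 0.22 and did not pass. The rise in isoform 7 did not pass without parental replicate 1 (adjusted p = 0.0739, limma), parental replicate 3 (0.0632), isoform 7 replicate 2 (0.0567) or isoform 7 replicate 3 (0.0723).

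LATS2, a kinase that phosphorylates YAP1 and TAZ, lies on chromosome 13 from 20973032 to 21061547 (minus strand). It rose in 4 lines and fell in none. In these lines, isoforms 1, 2, 8 and 10, between 16.9% and 19.8% of all genes were higher. The share of genes higher in at least 4 lines was not counted. The parental libraries had 6.32, 6.81 and 6.47 TPM, isoform 1 had 9.16, 9.72 and 8.04 TPM and isoform 2 had 9.33, 9.62 and 7.56 TPM, with no overlap. The log2 fold changes were 0.40 and 0.38 ± 0.09 (SE, adjusted p = 0.000485 and 0.000968, limma). Isoform 10 (0.33) and isoform 8 (0.27) passed too, the latter not when parental replicate 1 or 3, or isoform 8 replicate 1 or 3, was left out (adjusted p between 0.0643 and 0.096, limma). With median-of-ratios scaling LATS2 was higher in 6 lines. Isoform 4 was lowest, at 5.66, 6.63 and 5.38 TPM, with a fold change of -0.13 that did not pass.

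WWTR1, whose protein TAZ is the second co-activator, lies on chromosome 3 from 149517235 to 149736714 (minus strand). It fell in 10 lines and rose in none, as AMOTL2 did, where 1.53% of genes were lower in as many. Its levels in parental cells were 16.9, 17.9 and 17 TPM. Isoform 2 had 11.6, 12.2 and 11.7 TPM and isoform 1 had 11.1, 11.9 and 12.7 TPM, with log2 fold changes of -0.51 ± 0.07 (SE) in both and adjusted p-values of 2.63e-07 and 2.8e-07 (limma). Isoforms 5 and 6, the lines in which WWTR1 did not pass, had 16.5, 16.3, 15.5 and 16.3, 16.4, 15.4 TPM, below every parental library by a small margin and with a fold change of -0.10 in both. The same pair of lines did not pass for AMOTL2. The other 8 lines fell by 0.21 to 0.43 on the log2 scale. In isoform 4 the fold change of -0.21 did not pass with median-of-ratios scaling (-0.14, adjusted p = 0.0576, limma) or when any 1 of the parental libraries was left out (adjusted p between 0.0631 and 0.143). It also did not pass without either of 2 of its own libraries (0.18 and 0.0577). In isoform 12 it did not pass without parental replicate 2 (adjusted p = 0.0666, limma) or isoform 12 replicate 1 (0.13), and in isoform 9 without isoform 9 replicate 1 (0.0617).

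YAP1 lies on chromosome 11 from 102110461 to 102233423 (plus strand), and its range over all 39 libraries was narrow, from 17.7 to 27 TPM. Parental levels were 20.7, 23.4 and 21.6 TPM. Isoform 1 had 24.8, 27 and 26.1 TPM, above all of them, with a log2 fold change of 0.24 ± 0.06 (SE, adjusted p = 0.00187, limma). Isoform 5 (0.18, adjusted p = 0.0466, limma) and isoform 9 (-0.18, adjusted p = 0.033, limma) passed by a small margin. Isoform 5 did not pass when parental replicate 1 or 3 was left out (adjusted p = 0.198 and 0.126, limma), and isoform 9 did not when parental replicate 2 or 3 was (0.178 and 0.0592). Each also depended on 2 of its own libraries (adjusted p = 0.139 and 0.141 in isoform 5 and 0.163 and 0.0703 in isoform 9, where they were replicates 1 and 2). With median-of-ratios scaling YAP1 was higher in 5 lines and lower in 1. WWTR1 fell in isoform 1 while YAP1 rose there, so the mRNAs of the 2 co-activators moved in opposite directions in that line.

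TEAD1 and TEAD4 are DNA-binding partners of YAP1 and TAZ. TEAD1 lies on chromosome 11 from 12674591 to 12944483 and TEAD4 on chromosome 12 from 2959330 to 3040673 (both plus strand). TEAD1 fell in 8 lines and rose in none, and 6.71% of the genes tested were lower in at least 8 lines. The parental libraries had 13, 14.6 and 15.7 TPM of TEAD1, isoform 11 had 10.1, 10.4 and 8.66 TPM and isoform 1 had 9.58, 10.7 and 10.6 TPM. These libraries did not overlap, and the log2 fold changes were -0.52 ± 0.09 (SE, adjusted p = 4.41e-05, limma) and -0.45 ± 0.09 (adjusted p = 0.000151, limma). Without parental replicate 3, the highest parental library, TEAD1 was lower in 4 lines, and without parental replicate 2 in 6. The 4 lines that depended on parental replicate 3 were isoforms 3, 4, 9 and 10 (adjusted p between 0.0504 and 0.151, limma). Of these, isoform 4 also did not pass without 1 of its own libraries (0.0856), isoform 9 without its replicate 1 or 2 (0.136 and 0.153) and isoform 10 without its replicate 2 (0.0601). TEAD4 was the most abundant of the 10 genes by mean TPM, with 22 to 31.9 TPM over all libraries. In parental cells it had 25.1, 28.6 and 26.8 TPM, and only isoform 8, at 30.1, 31.9 and 31.8 TPM, passed (0.22 ± 0.08, adjusted p = 0.0357, limma). With median-of-ratios scaling TEAD4 was higher in 4 lines. Without parental replicate 1 or 3 it passed in none, and in isoform 8 it also did not pass without isoform 8 replicate 2 or 3 (adjusted p = 0.0897 and 0.0935, limma).

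**Figure D3:**
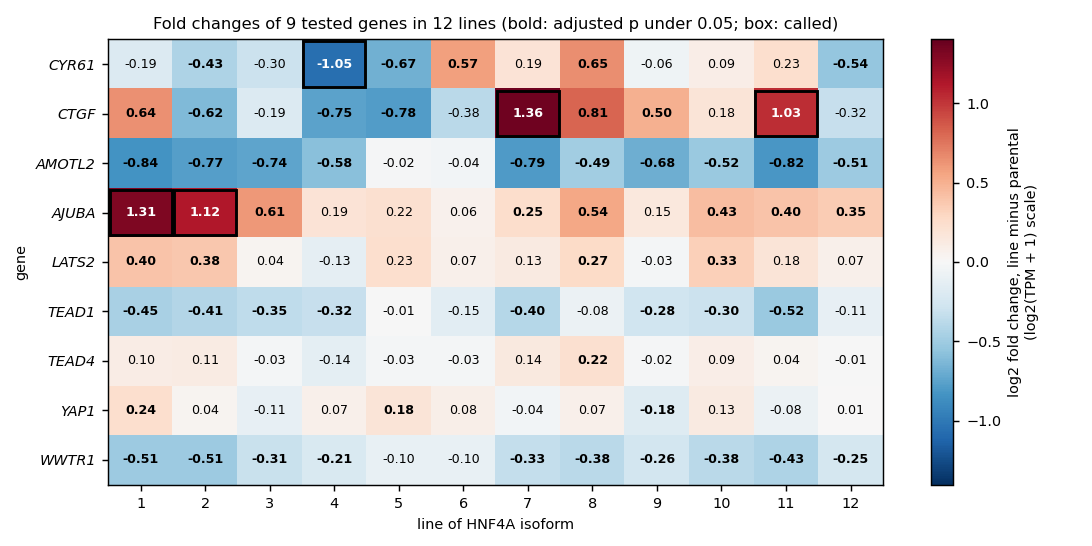
Log2 fold changes (line minus parental, log2(TPM + 1) scale, colour) of the 9 tested genes (vertical) in the 12 lines (horizontal), with bold numbers for an adjusted p under 0.05 and boxes for called pairs. AMOTL2, TEAD1 and WWTR1 are negative in all 12 lines, AJUBA is positive in all 12, and CYR61 and CTGF have both signs.

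The lines were also compared with each other in 66 pairs from the same fit, without the parental libraries. CTGF was called in 25 of 66 pairs, CYR61 in 11 and AJUBA in 6, where 1.41% of all gene-pair combinations were called. As many called pairs as CTGF were reached by 0.866% of the genes tested, as many as CYR61 by 3.04% and as many as AJUBA by 4.99%. The widest differences were 2.13 ± 0.15 (SE) for CTGF between isoforms 7 and 5 (adjusted p = 3.47e-13, limma) and 1.69 ± 0.15 for CYR61 between isoforms 8 and 4 (adjusted p = 2.69e-10, limma). For AJUBA it was 1.24 ± 0.09 between isoforms 1 and 6 (adjusted p = 2.64e-13, limma). AMOTL2 was called in none, and its widest difference was 0.81 ± 0.11 between isoforms 5 and 1. YAP1 (0.42), WWTR1 (0.42), TEAD1 (0.51), LATS2 (0.53) and TEAD4 (0.36) spanned less.

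From low to high, CTGF ran in the order isoform 5, 4, 2, 6, 12, 3, parental, 10, 9, 1, 8, 11 and 7. CYR61 ran isoform 4, 5, 12, 2, 3, 1, 9, parental, 10, 7, 11, 6 and 8. None of the 12 neighbouring pairs in either order differed at an adjusted p under 0.05. For AMOTL2 the order was isoform 1, 11, 7, 2, 3, 9, 4, 10, 12, 8, 6, 5 and parental, and 1 neighbouring pair differed, isoforms 6 and 8 (0.45 ± 0.11, adjusted p = 0.00186, limma). For AJUBA it was parental, 6, 9, 4, 5, 7, 12, 11, 10, 8, 3, 2 and 1, and 1 neighbouring pair differed, isoforms 2 and 3 (0.51 ± 0.09, adjusted p = 2.7e-05, limma). For LATS2, TEAD1, TEAD4, YAP1 and WWTR1 no neighbouring pair did.

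The 12 isoforms differ in their N-terminus (isoforms 1-3, 4-6, 7-9 and 10-12) and in their C-terminus (full in 1, 4, 7 and 10, an insertion in 2, 5, 8 and 11, shortened in 3, 6, 9 and 12), by the standard nomenclature and not by the labels. The line was the unit of these comparisons, which leaves 6 residual degrees of freedom. None of the 9 genes was called in any of 5 comparisons by limma, where 0.496% of all gene-contrast combinations were called, and 8 of 45 values had an unadjusted p under 0.05 (17.8%, beside 21.4% of all gene-contrast combinations). At an adjusted p alone 4 values passed. AJUBA had a mean of 4.77 in isoforms 1-3, 3.91 in 4-6 and 4.07 in 7-9 on the log2(TPM + 1) scale. The differences from isoforms 1-3 were -0.85 ± 0.12 (SE, adjusted p = 0.00221, limma) for 4-6 and -0.70 ± 0.12 (adjusted p = 0.0128, limma) for 7-9. AMOTL2 was higher in isoforms 4-6 than in 1-3 by 0.57 ± 0.14 (adjusted p = 0.0137, limma), with means of 4.59 and 4.02. WWTR1 was higher in isoforms 4-6 than in 1-3 by 0.31 ± 0.06 (adjusted p = 0.00572, limma), with means of 4.06 and 3.75. In the comparison of 4-6 with 1-3, 34.6% of all genes passed, and in that of 7-9 with 1-3, 11.6% did.

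The lines of a class were not alike in every gene. Among isoforms 4-6, AMOTL2 had line means of 4.78 in the highest and 4.22 in the lowest, and isoform 4 was lower than isoform 5 by a log2 difference of 0.55 ± 0.11 (SE, adjusted p = 0.000864, limma) and lower than isoform 6 by 0.54 ± 0.11 (adjusted p = 0.00105, limma). CYR61 spanned 3.41 to 5.02 among the same 3 lines, so its class difference of -0.07 ± 0.38 (SE) had a wide error. CTGF was higher in isoforms 7-9 than in 1-3 by 0.94 ± 0.37, which did not pass (adjusted p = 0.114, limma). No gene of the whole table passed in the comparison of 10-12 with 7-9 or of insertion with full forms, and 2 genes, 0.0133%, passed for the short C-terminal forms.

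**Figure D4:**
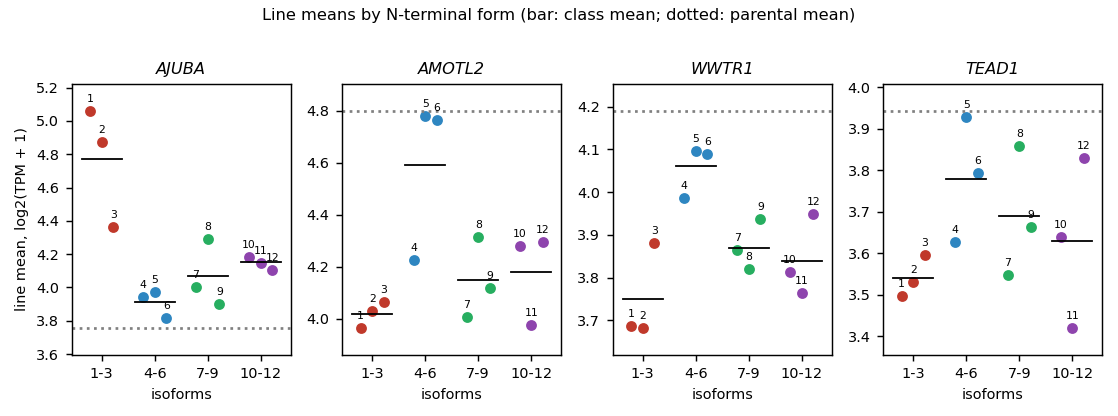
Line means on the log2(TPM + 1) scale (vertical axes, not starting at 0) of AJUBA, AMOTL2, WWTR1 and TEAD1, with the 12 lines (numbered points) set by isoforms 1-3, 4-6, 7-9 and 10-12. Bars are class means and the dotted line is the parental mean, and for AMOTL2 isoforms 5 and 6 lie by the parental line while isoform 4 lies lower.

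Between lines, AMOTL2 varied with TEAD1 (r of 0.84 and rho of 0.94 over 12 line means, r of 0.88 without isoforms 5 and 6) and with WWTR1 (0.81 and 0.73, and 0.52 without the same 2 lines). AJUBA ran against WWTR1 (r of -0.82, rho of -0.80, and -0.70 without isoforms 1 and 2). Within groups, the deviations of TEAD1, WWTR1 and YAP1 rose and fell together, with r of 0.81 for TEAD1 and WWTR1, 0.74 for YAP1 and WWTR1 and 0.68 for TEAD1 and YAP1 over 39 libraries. AMOTL2, which followed TEAD1 and WWTR1 between lines, had within-group r of -0.13 and -0.16 with them. Both genes of a point were read from the same libraries, and these values carry no test.

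Other genes of the pathway were counted from lists. Of 24 Hippo kinases, scaffolds and TEAD partners 22 were tested, which gave 264 gene-line pairs. None of these was called by limma, and 104 had an unadjusted p under 0.05 (39.4%, beside 40.1% of all gene-line pairs). At an adjusted p 24 were higher (9.09%, beside 12.8% of all pairs) and 53 lower (20.1%, beside 17.9%). With median-of-ratios scaling 41 were higher and 44 lower, beside 20.1% and 12.9% of all pairs, and 1, of TAOK3, was called higher. The median of the list was between -0.17 in isoform 7 and 0.03 in isoform 12. The genes named from this list were chosen after their values were seen. TEAD2 fell in 8 lines and rose in 2, from -0.76 in isoform 11 to 0.30 in isoform 4. Of the genes tested, 6.71% were lower and 6.19% higher in at least 8 lines. TEAD3 rose in 6 lines, by up to 0.56 in isoform 1, so the TEAD genes did not move as 1 group. TAOK3, a kinase upstream of STK3 and STK4, rose in 8 lines, by up to 0.90 in isoform 1. AMOT, the founding angiomotin, fell in 4 lines, by up to 0.81 in isoform 2, whereas AMOTL1 rose in 2, by up to 0.68 in isoform 1. LATS1, TAOK1 and TAOK2 passed in no line. With median-of-ratios scaling TEAD2 again fell in 8 lines and rose in 2, TEAD3 rose in 7, TAOK3 in 9 and AMOTL1 in 5, AMOT fell in 4 and rose in 1, and LATS1, TAOK1 and TAOK2 rose in 1, 1 and 2 lines.

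Of 16 further genes reported as YAP1 or TAZ targets 11 were tested. Of their 132 pairs 2 were called higher (1.52%, beside 0.94% of all gene-line pairs) and none lower (beside 0.574%). At an adjusted p 29 were higher (22%, beside 12.8% of all pairs) and 47 lower (35.6%, beside 17.9%). The list's median was between -0.28 in isoform 4 and 0.26 in isoform 2. The called pairs, named after their values were seen, were F3 (tissue factor) in isoform 2, at 1.93 ± 0.11 (SE), and NUAK2, a kinase, in isoform 7, at 1.00 ± 0.11. In isoform 4, where CYR61 and CTGF fell, 6 of the 11 were lower and none higher, where 10.1% of all genes were lower. In isoform 2, where both fell too, 7 of the 11 were higher and 4 lower, beside 19.7% and 35.6% of all genes. Isoform 5 had 2 higher and 5 lower, beside 9.57% and 5.22% of all genes. AXL, a receptor tyrosine kinase, and MYOF, also named after their values were seen, had fold changes of -0.60 and -0.49 in isoform 4 and of 0.26 and 0.29 in isoform 2. CRIM1 and FJX1, named in the same way, were at -0.67 and -0.80 in isoform 2, the lowest of their lines. In isoform 7, where CTGF was highest, 4 of the 11 were higher and 3 lower, beside 13.4% and 26.2% of all genes. Isoform 8, where both CYR61 and CTGF rose, had 3 higher and 4 lower, beside 16.9% and 17.5% of all genes.

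Several of these targets also answer to serum signals, SRF or TGF-beta, so genes of those inputs were counted too. Of 12 immediate-early genes 11 were tested. Of their 132 pairs 12 were called higher (9.09%, beside 0.94% of all gene-line pairs) and 2 lower (1.52%, beside 0.574%). At an adjusted p alone 40 were higher (30.3%, beside 12.8% of all pairs) and 25 lower (18.9%, beside 17.9%). JUN, a subunit of the AP-1 factor that often binds beside TEAD sites, was called higher in 7 lines. The share of genes called in as many lines was not counted. The level of JUN was 17.7 TPM ± 1.68 (SD, n = 3) in parental cells. Isoform 1 reached 96.6 TPM ± 14.5, which is 2.38 ± 0.10 (SE) on the log2 scale. In isoforms 4, 5 and 6 the fold changes of JUN were 0.17, -0.16 and -0.23 and did not pass. FOS, its partner, was called higher in 3 lines, with 17.4 TPM ± 3.5 in isoform 1 and 12.6 TPM ± 1.96 in isoform 7 against 5.12 TPM ± 0.725 in the parental cells. Others of the list, named after their values were seen, went the other way. IER3 passed as lower in 12 lines, down to -1.17 in isoform 10, and 0.16% of the genes tested were lower in 12. FOSL1 passed as lower in 8 lines, down to -0.75 in isoform 1, and FOSB in 4, down to -1.12 in isoform 2. Of the genes tested, 6.71% were lower in at least 8 lines. Of 12 SRF and actin genes all were tested, and 2 of 144 pairs were called higher (1.39%, beside 0.94% of all pairs). In all, 49 passed as higher (34%, beside 12.8%) and 30 as lower (20.8%, beside 17.9%), with a median between -0.16 and 0.27. With median-of-ratios scaling 61 and 18 passed, beside 20.1% and 12.9% of all pairs. Of 8 TGF-beta response genes 4 were tested. None of 48 pairs was called by limma, and 25 had an unadjusted p under 0.05 (52.1%, beside 40.1% of all pairs). Of the 48, 2 passed as higher (4.17%, beside 12.8%) and 16 as lower (33.3%, beside 17.9%). With that scaling these were 4 and 11, and the list's median was between -0.33 and 0.00. The median of the immediate-early list was between -0.20 in isoform 6 and 0.56 in isoform 1. The part of these inputs in the values of CTGF and CYR61 was not tested.

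**Figure D5:**
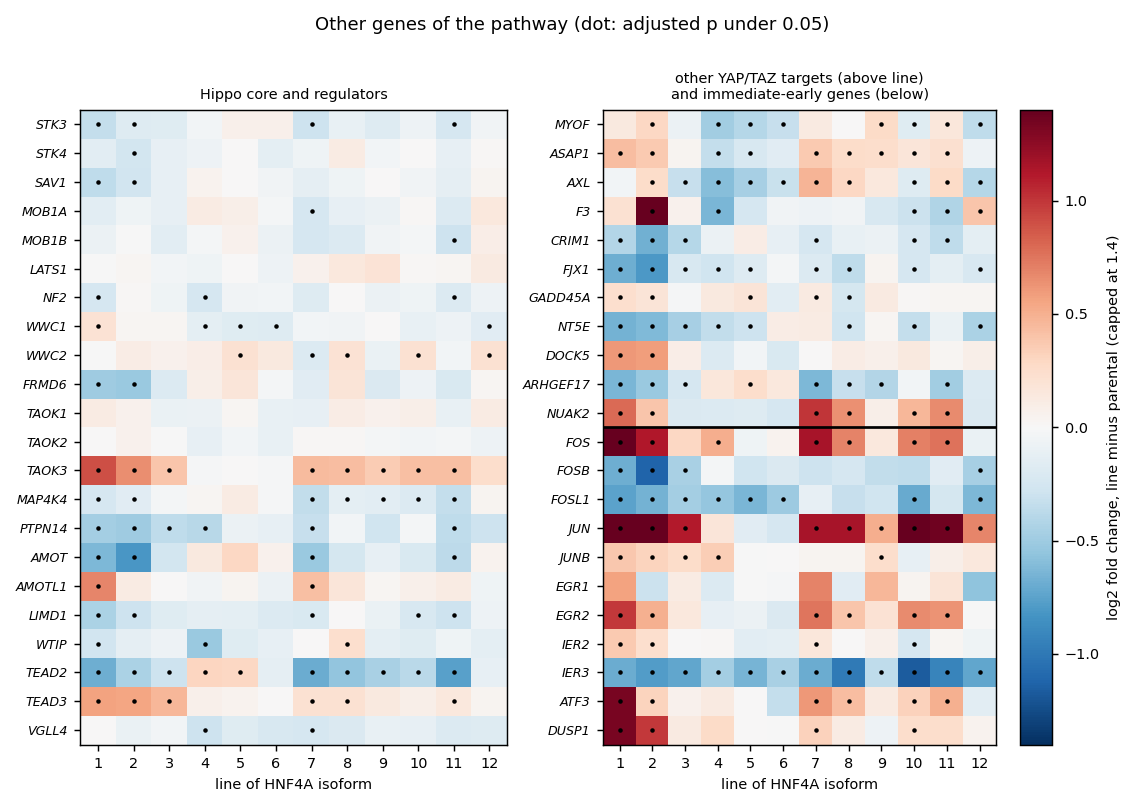
Log2 fold changes (line minus parental, colour, capped at 1.4 in size) of the other tested genes (vertical) in the 12 lines (horizontal), with Hippo genes on the left and further YAP1 or TAZ targets and immediate-early genes on the right. Dots mark an adjusted p under 0.05. TEAD2 passed as lower in 8 lines and as higher in 2, and TEAD3 passed as higher in 6 and as lower in 0.

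Over the 13 group means, the tested genes most like CTGF were ATP5F1D (Pearson r of 0.96), ALG3, FAM222A-AS1, TUFM and OGFRP1 (0.94 each). Those most like CYR61 were LINC02321 (0.89), SNW1, HBB and C19orf53 (0.88 each) and NRDC (0.86). TUFM moved little, with group means between 8.58 and 8.71 on the log2(TPM + 1) scale, while those of LINC02321 ran from 1.93 to 2.75. The genes most like CTGF and CYR61 were picked as the highest r among all tested genes over only 13 values. Their r values carry no test and do not show shared control. None of the 10 YAP/TEAD genes was eligible for this ranking, and the strand setting of the quantification, on which values of an antisense gene such as FAM222A-AS1 depend, is not given in the sources used here. Of the 108 pairs, 66 had an adjusted p under 0.05 in the authors' deposited tables. Among them were 55 of the 58 that passed here, with the same direction, and no pair passed in both with opposite directions. The pairs that passed here and not there were CYR61 in isoforms 2 and 12, where it was lower, and YAP1 in isoform 9.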

How the data were processed

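The authors deposited 13 tables, 1 per group, with TPM for each library (39 in all, each summing to between 999972.6 and 999987.7), and for each line their own log2 fold change, its standard error, adjusted p-value and mean normalised counts, per the file headers. The submitters' processing notes name Trimmomatic 0.36, FastQC 0.11.5, kallisto 0.44.0, DESeq2 1.22.2 and GRCh38.p12, without saying which step each served. TPM carries no read depth, so no counting interval is given. The authors' deposited mean normalised counts summed to between 50609338 and 56136330 per table. The 12 rows of single HNF4A isoforms were summed. The 6 libraries of isoforms 4 and 5 carry a group but no replicate number.

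Here limma 3.58.1 in R 4.3.3 was fitted on log2(TPM + 1) for the 15003 genes whose mean reached 1 TPM, in 1 fit of 39 libraries (13 groups, 26 residual degrees of freedom, eBayes with trend). Fold changes on this scale understate those of low genes. For classes of isoforms, line means entered an additive model of the N-terminus and the C-terminus. Alternatives were a pseudocount of 0.1 TPM, no filter, a mean of at least 5 TPM, median-of-ratios scaling, a replicate block, the 6 libraries of a comparison alone, and leaving out each library. The fits were tested on simulated data. Gene coordinates are from GENCODE (GRCh38). The 10 genes and all lists were chosen with earlier results of these data known. Named beside them are HNF4A, list genes called the same way in at least 3 lines (at most 6 a list), and the 5 genes most like CTGF and CYR61. Other names are said to be chosen after their values were seen.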

Additional observations from a re-analysis of the deposited data

Results flagged for a closer look

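Differences that were called between lines, or that passed between classes of lines (limma, adjusted p under 0.05), were flagged for 5 genes. CTGF differed by 2.13 on the log2 scale between isoforms 7 and 5, the widest of its 25 called differences between lines. CYR61 differed by 1.69 between isoforms 8 and 4, the widest of 11, and AJUBA by 1.24 between isoforms 1 and 6, the widest of 6. Between classes of lines, AJUBA differed by -0.85 (isoforms 4-6 minus 1-3) and -0.70 (7-9 minus 1-3). AMOTL2 differed by 0.57 and WWTR1 by 0.31 (4-6 minus 1-3). These class differences are to be read beside the 34.6% of all genes that passed for 4-6 minus 1-3. For 7-9 minus 1-3, 11.6% of all genes passed. Groups of 3 libraries are too small for a test of single libraries that stand apart.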

How the results depend on the processing

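The 4 pairs called higher stayed at 4 under a pseudocount of 0.1 TPM, without the filter, with a mean of at least 5 TPM, with median-of-ratios scaling, with the replicate block and with the 6 libraries of a comparison. The 1 pair called lower (CYR61 in isoform 4) became 0 with median-of-ratios scaling, where its fold change was -0.98. Leaving out 1 library gave 3 to 4 pairs called higher, 0 to 1 called lower, 17 to 23 higher and 30 to 37 lower at an adjusted p alone, and 0 to 0 genes called between classes. No fold change reversed sign where it passed. Of the 58 pairs that passed, 16 were lost on leaving out at least 1 library and 42 were not. Without the filter 19 pairs passed as higher and 33 as lower, and with the 6 libraries of a comparison 22 and 30.

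Same-numbered libraries of different groups did not deviate together throughout (165 pairs, correlation between -0.175 and 0.232, median 0.0542, 23% above 0.1), though 29 of 33 correlated best with their own number, a hint from the data and not from the design. With the replicate block, over the 10 lines with numbers, 4 pairs were called higher and 0 lower, and 22 passed as higher and 31 as lower. Isoform 4, the line of the only pair called lower, has no numbers and was not in that fit, so the 0 says nothing of its call. The block brought 3 further results under the threshold, CTGF in isoforms 6 and 12 (adjusted p = 0.00803 and 0.0165, limma) and LATS2 in isoform 11 (0.0425). Without the block on the same 33 libraries, an alternative chosen after seeing the data, these were 4, 0, 21 and 29. Depth per library is not known from TPM, which limits what can be said of ANKRD1.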
